A study of Mus musculus with 12 samples.

Results

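The comparison described here is the loss of the second copy of Slc25a1 in the mouse heart at stage E17.5, late in gestation. It set 4 homozygous knockout hearts (KO, with both copies disrupted) against 4 heterozygous hearts (HET, with 1 disrupted copy), which are 8 of the 12 hearts measured. The hearts were chosen by the genotype on their labels. The wild type hearts took no part in any value given here, so both groups compared carried a disrupted copy and the controls were not normal hearts. All embryos came from timed matings of heterozygous carriers, and total RNA of each heart was read with NanoString nCounter probes for 768 transcripts, many of them metabolic. The sources used here do not give the allele, the strain, the litters or the sex of the embryos. Where nothing states that hearts came from separate litters, p-values measure the spread between these hearts alone.

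Slc25a1 encodes the mitochondrial citrate carrier, which exchanges citrate made in the matrix for malate from the cytosol. In the cytosol citrate is cleaved to acetyl-CoA, the building block of fatty acids and sterols and the donor for protein acetylation. Before birth the heart relies mainly on glucose and lactate, and its mitochondria mature as it prepares to burn fatty acids.

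Values below are log2 levels relative to the median gene of the same heart, so a value of -2 is a level well under that of the typical panel gene, and a change is the KO mean minus the HET mean on that scale. In all, 703 genes with a mean of at least 20 counts over the 8 hearts were tested. Total counts ran from 1285512 to 1484207 per heart, and counting error alone did not account for the spread within a genotype, since chi-square divided by its degrees of freedom was 3.81 to 26.5 in the 12 pairs. No marker of cardiomyocytes was on the panel, 11 metabolic genes of the muscle type were, and 10 of these were tested. The tissue label could therefore not be checked against contractile genes.

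HET 4 and KO 1 stood apart from the other 6 hearts. On the first principal component, which held 37.7% of the variance, HET 4 scored 6.11 and KO 1 scored 6.19, while the other hearts lay between -3.32 and 0.68. Among the genes that weighed most on this component were Mycl, Cyp1b1 and the mast cell proteases Tpsb2 and Cpa3, which were picked out after their values were seen. The 50 leukocyte genes on the panel made up 0.242% of all counts in HET 4 and 0.256% in KO 1, against 0.140% to 0.182% in the other hearts. Since 1 of these hearts is HET and the other KO, the main results that rest on them are given with and without both.

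Slc25a1 followed the labels. Its level was -1.99, -2.18, -1.83 and -1.86 in HET hearts 1 to 4, and -3.37, -4.01, -3.36 and -4.03 in KO hearts 1 to 4. Every KO heart lay below every HET heart, and KO 2 and KO 4 were lower than the other KO pair. In probe counts this was 102 to 137 in HET and 26 to 44 in KO hearts. The level fell by 1.73 on the log2 scale (SE 0.183, n = 4 hearts a group, limma adjusted p = 0.00771), to 30.2% of the HET level. The remaining signal in KO hearts was thus above the lowest count of any probe in these hearts, 5 to 9, and the sources used here do not say where the probe lies relative to the disrupted part.

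Phgdh, the enzyme that commits the glycolytic intermediate 3-phosphoglycerate to serine synthesis, rose. It stood at -0.99, -1.10, -0.98 and -0.76 in HET hearts and at -0.31, -0.20, -0.28 and -0.32 in KO hearts. The KO hearts lay close together, all above HET 4, which was the highest of its group. The change was 0.68 (SE 0.0796, n = 4 a group, limma adjusted p = 0.00855), a 1.60-fold higher level. Exact permutation of the hearts gave a two-sided p of 0.0286, the smallest that 4 against 4 hearts allow. Every gene whose hearts do not overlap has this unadjusted p, so it adds nothing to the lack of overlap. Without HET 4 and KO 1 the change was 0.75 (limma adjusted p = 0.0181), while the call was lost without KO 3 (limma adjusted p = 0.0511) and on the deposited scale of ratios to Tbp (change 0.61, limma adjusted p = 0.0524).

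Slc25a1 and Phgdh were the genes called at an adjusted p under 0.05, 2 of 703 or 0.284%, with 0.142% in each direction. At an unadjusted p under 0.05 there were 53 genes (7.54%), of which 26 were higher (3.7%) and 27 lower (3.84%) in KO hearts. In 33 genes (4.69%) the hearts did not overlap, with 17 (2.42%) higher and 16 (2.28%) lower in KO. The KO mean was above the HET mean for 325 genes (46.2%) and below it for 378 (53.8%), and the median change was -0.01. Tbp, the general transcription factor by which the deposited values had been divided, had a change of 0.06 (limma adjusted p = 0.884). The plot of all genes by change and p shows Slc25a1 and Phgdh far above the other 701 genes, with Gzma, Ctss and Cd36 next on the lower side and Cdca5 next on the higher side.

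**Figure D1:**
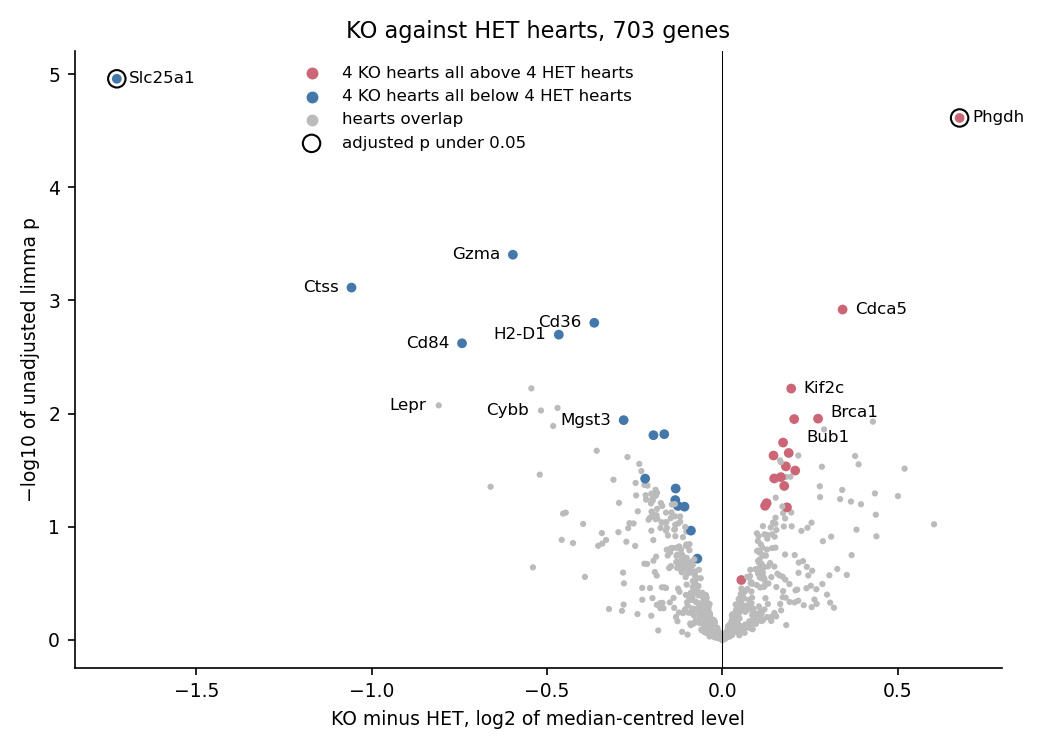
Change of each of 703 genes between 4 KO and 4 HET hearts (x axis, log2 of the median-centred level) against the negative log10 of its unadjusted limma p (y axis). Coloured points are the 33 genes whose hearts did not overlap (17 higher in red, 16 lower in blue), and rings mark Slc25a1 and Phgdh, the genes with an adjusted p under 0.05.

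Phgdh was followed through its pathway. Serine synthesis runs from Phgdh through the aminotransferase Psat1 to the phosphatase Psph, and all 3 enzymes are on the panel. Psat1 was at 1.83, 1.59, 1.64 and 1.60 in HET and 1.76, 1.84, 1.94 and 1.97 in KO hearts. HET 1 overlapped the KO hearts, and the change of 0.22 did not pass (SE 0.0780, limma adjusted p = 0.572). Psph, named here to complete the pathway, had a change of -0.03. Of 12 tested genes of serine, glycine and one-carbon metabolism 7 were above and 5 below HET, with a median change of 0.07 against -0.01 over all genes, and Phgdh was the 1 gene of the list that passed. Relative to all genes the median was 0.09, and it was 0.05 without KO 2. Tyms, the thymidylate synthase that uses one-carbon units, had a change of 0.28 (limma adjusted p = 0.572), and Mat2a, which makes S-adenosylmethionine, had -0.13 (limma adjusted p = 0.572), which became 0.00 under quantile normalization.

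Phgdh, Psat1 and Psph are also among the genes known to be induced by ATF4, a transcription factor that is translated when amino acids run short or mitochondria are disturbed. Of the 14 tested genes of that list 13 were above HET and 1 below, with a median change of 0.11 against -0.01 over all genes and with 46.2% of all genes above HET. Phgdh alone passed the test, and 3 of the 14 were higher at an unadjusted p under 0.05, against 3.7% of all genes. Without Phgdh, 12 of 13 were above HET and the median change was also 0.11. The mean level of the list, as a deviation from the mean of the 8 hearts, was -0.08, -0.10, -0.14 and -0.01 in HET and 0.06, 0.15, 0.11 and 0.01 in KO hearts. HET 4 and KO 4 were nearly level, and with Phgdh taken out they overlapped.

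Asns, which makes asparagine from aspartate and glutamine, was at -1.02, -1.25, -1.42 and -1.27 in HET and -0.91, -0.50, -1.07 and -0.97 in KO hearts. KO 2 was the highest heart by a wide margin and KO 3 fell below HET 1, so the groups overlapped. Its change was 0.38 (SE 0.137, limma adjusted p = 0.572). Pycr1, the last enzyme of proline synthesis, had a change of 0.29 with a wide spread (SE 0.173, limma adjusted p = 0.609). Its HET 4 level of -0.26 was above 3 of the 4 KO hearts. The amino acid carriers Slc1a5 and Slc3a2 each had a change of 0.15, and Slc7a5, the partner of Slc3a2 in large neutral amino acid uptake, had 0.11, none past the test. Atf4 itself, named after its value was seen, had a change of 0.01. Without HET 4 and KO 1, 12 of the 14 genes were above the median of all genes and the list median relative to it was 0.18, against 0.13 with all 8 hearts. With single hearts left out in turn this relative median ran from 0.09 to 0.17.

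Promoter windows of Phgdh, the gene that rose, and of Asns are shown to set the known ATF4 binding element beside the values. They run from 250 bases before to 50 bases after the RefSeq start of each gene, in assembly GRCm38.p6, 5′ to 3′ on the strand of the gene. The letters TGATGNAAN, the core of the element where C/EBP and ATF proteins bind, were searched on both strands and are in capitals where found. Phgdh lies at chr3:98339920-98340219 on the minus strand and its window held 0 matches. Asns lies at chr6:7693160-7693459 on the minus strand and its window held 1 match, which begins 23 bases before the start.
Phgdh: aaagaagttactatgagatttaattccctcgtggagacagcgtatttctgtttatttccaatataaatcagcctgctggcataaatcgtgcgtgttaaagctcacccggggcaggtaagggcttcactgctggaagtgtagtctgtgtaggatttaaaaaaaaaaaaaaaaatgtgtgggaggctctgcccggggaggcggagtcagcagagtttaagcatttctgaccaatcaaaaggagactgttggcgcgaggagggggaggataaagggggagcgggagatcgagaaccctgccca
Asns: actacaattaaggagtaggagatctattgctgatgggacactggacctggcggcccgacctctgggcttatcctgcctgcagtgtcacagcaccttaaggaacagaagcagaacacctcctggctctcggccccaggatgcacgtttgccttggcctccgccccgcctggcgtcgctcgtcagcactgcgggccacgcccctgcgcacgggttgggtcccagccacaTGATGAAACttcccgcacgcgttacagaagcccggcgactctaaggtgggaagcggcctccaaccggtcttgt

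Of the 14 genes of the ATF4 list 12 had such a window, and 4 of these held the letters, namely Asns, Pck2, Pycr1 and Slc7a11. Over the 32851 windows of the same length that were searched 1299 held them (3.95%), and among the genes tested here with a window 19 of 559 did (3.40%). The list holds genes already known to be induced by ATF4, so its share of matches says nothing about these hearts. A match describes the letters of the window and not binding, and a window without one says nothing about more distant elements.

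**Figure D2:**
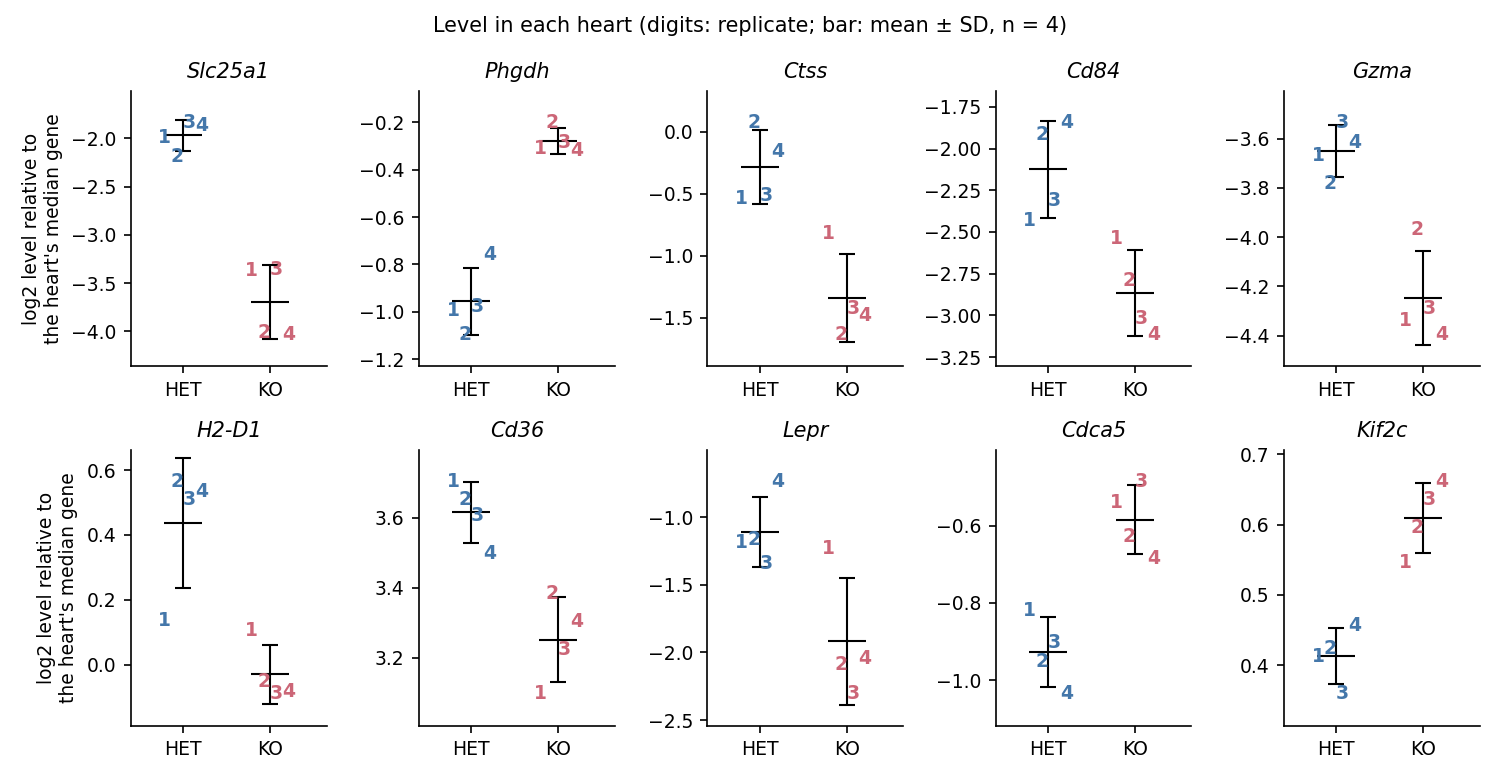
Level of 10 genes in each of 4 HET (blue) and 4 KO (red) hearts, as log2 relative to the median gene of the heart, with digits for the replicate and bars for mean ± SD. Slc25a1 and Phgdh are shown beside Ctss, Cd84, Gzma, H2-D1, Cd36, Cdca5 and Kif2c, whose hearts did not overlap either, and Lepr, where KO 1 at -1.23 lies among the HET hearts.

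The respiratory chain passes electrons from NADH and succinate to oxygen and drives ATP synthase. All 17 tested subunits of complex I were below HET, with changes from -0.22 to -0.03 and a median of -0.15 against -0.01 over all genes. For complexes II to V this was so for 15 of 16 subunits, with a median of -0.19, the exception being the cytochrome oxidase subunit Cox7b at 0.11, named after its value was seen. None of the 33 subunits passed the test, with adjusted limma p from 0.520 to 0.961 and standard errors of 0.0551 to 0.134. With 53.8% of all genes below HET, 32 of 33 subunits were so.

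Ndufa6, an accessory subunit of complex I, was at 2.30, 2.22, 2.27 and 2.10 in HET and 1.95, 2.07, 2.01 and 2.07 in KO hearts. No heart overlapped, with HET 4 nearest to the KO hearts, and the change was -0.20 (SE 0.0646, limma adjusted p = 0.520). Sdha, the flavoprotein of succinate dehydrogenase, which serves both the chain and the citric acid cycle, was at 4.53, 4.32, 4.56 and 4.33 in HET and 4.04, 4.27, 4.24 and 4.31 in KO hearts. These hearts did not overlap either, although KO 4 came close to HET 2, and the change was -0.22 (limma adjusted p = 0.572). Uqcrq of complex III had a change of -0.24, Atp5k of ATP synthase -0.21, and Ndufb10 and Ndufb4 of complex I -0.22 and -0.19, all with overlapping hearts and an adjusted limma p of 0.572.

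The subunits moved together from heart to heart. The mean level of complex I was 0.15, 0.04, 0.21 and -0.10 in HET and -0.17, -0.07, -0.03 and -0.02 in KO hearts, as deviations from the mean of the 8 hearts. HET 4 lay below KO 2, KO 3 and KO 4, and KO 1 was the lowest heart. In 30 of 33 subunits HET 4 was the lowest HET heart and in 31 of 33 KO 1 was the lowest KO heart, the same hearts that stood apart on the first component. Without both, all 17 complex I subunits were still below the median of all genes, with a relative median of -0.17 against -0.13 with all 8 hearts, and 15 of 16 subunits of complexes II to V were, with -0.16 against -0.18. Single hearts moved these values more. With single hearts left out in turn the complex I median ran from -0.22, without HET 4, to -0.10. For complexes II to V it ran from -0.25 to -0.11, the latter without KO 1, and was -0.12 without HET 3. Quantile normalization, which forces the same distribution on each heart, brought the relative medians to -0.04 for both lists, with 14 of 17 and 11 of 16 subunits below the median gene.

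Genes that feed the chain had changes of the same sign in most cases. The lists share members, so their counts are not separate. Sdha is counted here and in complexes II to V, and Cd36 in the muscle-type and the fatty acid list. Of 25 tested genes of the citric acid cycle and pyruvate entry 20 were below HET, with a median of -0.13. Measured from the all-gene median this was -0.11, and it was -0.17 without HET 4, -0.07 without KO 1, -0.11 without both and -0.03 under quantile normalization. Mpc2, which with Mpc1 forms the carrier that brings pyruvate into mitochondria, was at 4.23, 3.98, 4.24 and 3.89 in HET and 3.71, 3.83, 3.77 and 3.94 in KO hearts. KO 4 overlapped HET 4, and the change of -0.27 did not pass (SE 0.0981, limma adjusted p = 0.572), nor did the -0.30 without HET 4 and KO 1 (limma adjusted p = 0.377). Got1, the cytosolic aspartate aminotransferase of the malate-aspartate shuttle, had a change of -0.20 (limma adjusted p = 0.572). Of 10 muscle-type metabolic genes 9 were below HET, with a median of -0.14. Measured from the all-gene median this was -0.13, against -0.17 without HET 4 and KO 1. With single hearts left out in turn it ran from -0.22, without HET 4, to -0.10. Among these genes Eno3, the muscle enolase, had a change of -0.25 and Ak1, the muscle adenylate kinase, one of -0.17, both with a limma adjusted p of 0.572. The 11 muscle-type genes together took 3.15% to 3.54% of counts in HET and 3.02% to 3.21% in KO hearts, so the groups overlapped. In RNA from whole hearts, fewer cells of a type and less RNA per cell cannot be told apart.

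Fatty acid oxidation and uptake was represented by 13 tested genes, 10 of them below HET, with a median of -0.11. Cd36, the fatty acid translocase of the cell surface, was at 3.70, 3.65, 3.61 and 3.50 in HET and 3.10, 3.38, 3.22 and 3.30 in KO hearts. All KO hearts lay below all HET hearts, with HET 4 and KO 1 the lowest of their groups. The change was -0.37 (SE 0.0788, limma adjusted p = 0.185), and it was -0.35 without HET 4 and KO 1 (limma adjusted p = 0.182). A variance trend with the level in limma brought it past the threshold (adjusted p = 0.0350). Pparg, a nuclear receptor of lipid storage, had a change of -0.52 (SE 0.206, limma adjusted p = 0.572) at a mean of 36.1 counts. Acat1, which acts in ketone and isoleucine breakdown, had -0.14, and 0.03 under quantile normalization. The list median relative to all genes was -0.10, and it was -0.03 without KO 1, -0.17 without HET 4, -0.09 without both and -0.05 under quantile normalization.

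**Figure D3:**
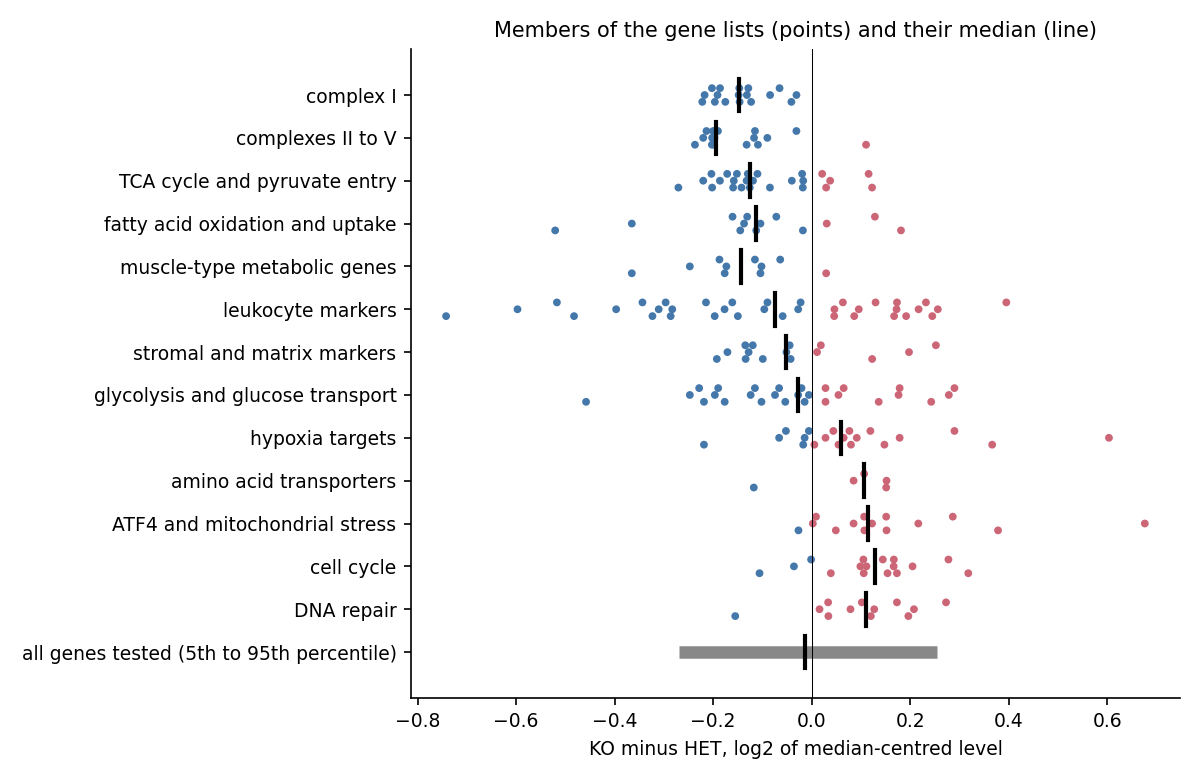
Change between KO and HET hearts (x axis, log2 of the median-centred level) of each tested member of 13 gene lists (points, blue below 0 and red above) with the list median (black line). The grey bar spans the 5th to 95th percentile of the tested genes other than Slc25a1, -0.27 to 0.25, and describes single genes, not medians. The medians run from -0.19 for complexes II to V to 0.13 for the cell cycle list.

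Genes of cell division and DNA repair were mostly above HET, by small amounts. Of 16 cell cycle genes 13 were above HET, with a median of 0.13, and of 12 DNA repair genes 11 were, with a median of 0.11. None of them passed the test. Both medians kept their sign under all 23 alternatives, and under quantile normalization they were 0.15 and 0.09 relative to all genes.

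Cdca5, or sororin, which holds sister chromatids together until mitosis, was at -0.82, -0.95, -0.90 and -1.03 in HET and -0.54, -0.63, -0.49 and -0.68 in KO hearts. All KO hearts were above all HET hearts, by at least the gap between HET 1 and KO 4. The change was 0.34 (SE 0.0709, limma adjusted p = 0.169). Kif2c, a kinesin that takes microtubules apart at the centromere, was at 0.41, 0.42, 0.36 and 0.46 in HET and 0.55, 0.60, 0.64 and 0.66 in KO hearts. The hearts did not overlap, and the change was 0.20 (SE 0.0535, limma adjusted p = 0.422). Neither Cdca5 nor Kif2c belongs to the cell cycle or DNA repair list, and both are named because their hearts did not overlap. The spindle checkpoint kinase Bub1 had a change of 0.20 (limma adjusted p = 0.487) and the proliferation marker Mki67 one of 0.17 (limma adjusted p = 0.572), also without overlap.

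In DNA repair, Brca1, which acts in repair of double strand breaks, was at -0.85, -0.90, -1.02 and -0.79 in HET and -0.46, -0.73, -0.72 and -0.56 in KO hearts. KO 1 was the highest and KO 2 came closest to the HET hearts. Its change was 0.27 (SE 0.0836, limma adjusted p = 0.487). Fancd2 and Fanci, which form a clamp at crosslinked DNA, had changes of 0.17 and 0.21 (limma adjusted p = 0.572 for both) and their hearts did not overlap. The mean level of the cell cycle list was 0.01, -0.09, -0.14 and -0.02 in HET and 0.09, -0.00, 0.12 and 0.03 in KO hearts. HET 1 lay above KO 2, so the list as a whole overlapped. The DNA repair list overlapped as well, with KO 2 at -0.05, below HET 1 at 0.02 and HET 4 at -0.03.

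The promoter window of Cdca5 is shown because genes of late cell cycle often carry the letters TTTGAA, known as a cell cycle homology region, near their start. It lies at chr19:6084847-6085146 on the plus strand of GRCm38.p6 (RefSeq), and both strands were searched. It held 2 matches, in capitals, that begin 17 and 9 bases before the start.
Cdca5: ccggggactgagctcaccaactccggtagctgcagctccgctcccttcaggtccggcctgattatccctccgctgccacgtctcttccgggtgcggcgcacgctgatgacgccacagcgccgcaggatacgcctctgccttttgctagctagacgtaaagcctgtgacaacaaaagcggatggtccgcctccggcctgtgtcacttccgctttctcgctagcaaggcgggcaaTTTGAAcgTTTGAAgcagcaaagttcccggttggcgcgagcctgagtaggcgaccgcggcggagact

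In the cell cycle list 11 of 16 genes had a window and 6 held the letters, namely Bub1b, Ccnb2, Cdc20, Mki67, Mycn and Plk1. These letters are common, found in 5878 of the 32851 windows searched (17.9%) and in 97 of the 559 genes tested here with a window (17.4%). They are known from genes of the late cell cycle, so the share in this list says nothing about these hearts either.

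After Slc25a1, several of the most negative changes were in genes of immune cells, although 15 of the 36 tested leukocyte markers were above HET. Ctss, a lysosomal protease of antigen-presenting cells, was at -0.54, 0.08, -0.51 and -0.16 in HET and -0.82, -1.64, -1.43 and -1.48 in KO hearts. KO 1 was far above the other KO hearts and still below every HET heart. The change was -1.06 (SE 0.204, limma adjusted p = 0.135), a level of 48.0% of HET, with 155 to 492 counts per heart. It did not pass here, nor without both hearts that stood apart (-1.19, limma adjusted p = 0.0620). It did pass without KO 1 alone (-1.23, limma adjusted p = 0.0181) and on the deposited scale (-1.12, limma adjusted p = 0.00807).

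Cd84, a receptor on lymphoid and myeloid cells, was at -2.43, -1.92, -2.31 and -1.84 in HET and -2.54, -2.79, -3.02 and -3.12 in KO hearts. The hearts did not overlap, and the change was -0.74 (SE 0.172, limma adjusted p = 0.210). It passed on the deposited scale (-0.81, limma adjusted p = 0.0293) and with heart weights (-0.89, limma adjusted p = 0.0486). Gzma, granzyme A of cytotoxic lymphocytes, was at -3.67, -3.78, -3.53 and -3.61 in HET and -4.34, -3.97, -4.29 and -4.40 in KO hearts. All KO hearts were lower, KO 2 least so, and the change was -0.60 (SE 0.104, limma adjusted p = 0.0923) on only 20 to 40 counts per heart. H2-D1, a heavy chain of class I histocompatibility molecules found on most cells, was at 0.14, 0.56, 0.51 and 0.53 in HET and 0.10, -0.05, -0.09 and -0.08 in KO hearts. HET 1 lay close to KO 1, far from its own group, and the change was -0.47 (SE 0.105, limma adjusted p = 0.201). Without HET 1 it was -0.57 and passed (limma adjusted p = 0.0272).

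KO 1 decided whether 2 further genes were called. Cybb, the phagocyte NADPH oxidase, was at -2.27, -2.17, -2.16 and -2.18 in HET and -2.23, -2.83, -3.02 and -2.77 in KO hearts. KO 1 sat among the HET hearts, and the change was -0.52 (SE 0.153, limma adjusted p = 0.487) with it and -0.68 (limma adjusted p = 0.0150) without it. Lepr, the leptin receptor, was at -1.19, -1.16, -1.35 and -0.74 in HET and -1.23, -2.09, -2.31 and -2.05 in KO hearts. KO 1 again lay within the HET range while the other KO hearts were below it. The change was -0.81 (SE 0.235, limma adjusted p = 0.487) with KO 1 and -1.04 (limma adjusted p = 0.0255) without. With HET 4 left out as well, Cybb was at -0.67 (limma adjusted p = 0.0345) and Lepr at -0.91 (limma adjusted p = 0.0209). The macrophage marker Cd68 had a change of -0.48 (limma adjusted p = 0.503), with HET 1 at -1.46 within the KO range.

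Of these genes Cd84, Gzma, Cybb and Cd68 belong to the list of leukocyte markers, and all were lower in KO. Other members went the other way, among them Cd14 (0.256), Cd8b1 (0.245) and Cd3e (0.232), picked out after their values were seen. Of 50 genes on the panel 36 passed the count minimum, 15 of them above and 21 below HET, with a median of -0.07, none passed the test and 5 were lower at an unadjusted p under 0.05, against 3.84% of all genes. Relative to all genes the median was -0.06, and it was -0.05 without HET 4 and KO 1. It ran from -0.14 without HET 2 to 0.0047 without KO 2, and was -0.27 over the 14 members with a mean of at least 50 counts. None of the 50 was at 0 in any heart. The 50 together took 0.149% to 0.242% of counts in HET and 0.140% to 0.256% in KO hearts. The mean level of the 36 was -0.06, -0.13, 0.11 and 0.26 in HET and 0.24, -0.22, -0.02 and -0.19 in KO hearts, and HET 4 and KO 1 were the highest. The 15 stromal and matrix genes, which took 2.48% to 3.22% in HET and 2.62% to 2.97% in KO hearts, were also highest in HET 4 and KO 1. Of these 15 genes 5 were above and 10 below HET, with a median of -0.05, which relative to all genes was -0.04 and turned to 0.01 under quantile normalization and 0.02 without HET 4, while it was -0.01 without HET 4 and KO 1. The collagen receptor subunit Itga1 had a change of -0.12 (limma adjusted p = 0.693). The basement membrane collagens Col4a1 and Col4a2 each had -0.13, which for Col4a2 became 0.01 under quantile normalization. The part of leukocyte and stromal content in the changes of Ctss, Cd84, Cybb, Lepr and the respiratory chain was not tested.

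**Figure D4:**
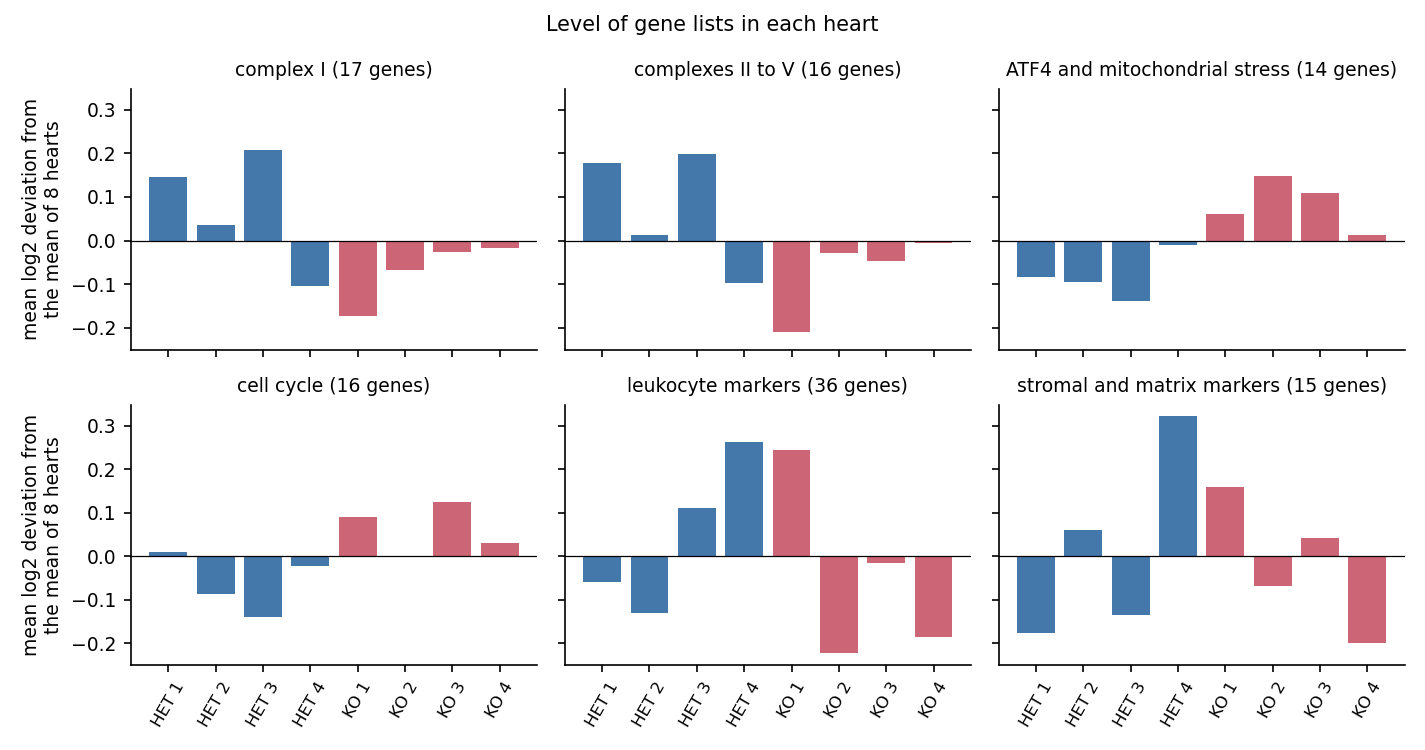
Mean level of 6 gene lists in each heart (y axis, mean log2 deviation of the tested members from the mean of the 8 hearts), HET in blue and KO in red. HET 4 and KO 1 are the lowest hearts of their groups for both respiratory chain lists and the highest for leukocyte and stromal genes, while the KO bars lie above the HET bars for the ATF4 list.

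Of the 9 tested genes of citrate and acetyl-CoA handling, named here in full, only Slc25a1 passed. Acly, the enzyme that cleaves citrate, was not among the genes tested. Citrate synthase, Cs, was at 5.26, 5.12, 5.25 and 4.98 in HET and 4.84, 5.10, 5.07 and 5.13 in KO hearts, overlapping, with a change of -0.12 (limma adjusted p = 0.696). The cytosolic isocitrate dehydrogenase Idh1 had a change of -0.08 and the mitochondrial Idh2 one of -0.02. The carboxylases Acaca and Acacb, which turn acetyl-CoA into malonyl-CoA, had changes of 0.05 and -0.06, and that of Acaca was -0.02 on the deposited scale. Fatty acid synthase, Fasn, had 0.01, the malonyl-CoA decarboxylase Mlycd -0.01 and the thioesterase Acot12 0.05. Scd1, which desaturates stearate, was at -2.14, -2.00, -2.00 and -1.53 in HET and -1.27, -1.56, -1.66 and -1.64 in KO hearts. HET 4 overlapped the KO hearts, and the change was 0.39 (SE 0.146, limma adjusted p = 0.572), or 0.43 without HET 4 and KO 1 (limma adjusted p = 0.0947). Srebf1, the regulator of fatty acid synthesis genes, had a change of 0.12 (limma adjusted p = 0.696).

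Glucose handling showed no common direction. Of 27 tested genes of glycolysis and glucose transport 10 were above and 17 below HET, with a median of -0.03. Slc2a1, the glucose carrier GLUT1, was at -0.04, 0.07, 0.26 and -0.10 in HET and 0.22, 0.43, 0.40 and 0.29 in KO hearts. HET 3 overlapped KO 1, and the change was 0.29 (SE 0.0929, limma adjusted p = 0.510). Hk2, a hexokinase of muscle and growing cells, had a change of -0.22 and the fructose bisphosphatase Tigar one of -0.19 (limma adjusted p = 0.572 for both). Of 20 hypoxia targets 14 were above HET with a median of 0.06, and the relative median turned from 0.07 to -0.01 without KO 2. Hmox1, which breaks down heme, had a change of 0.37 (SE 0.168, limma adjusted p = 0.572).

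The remaining genes whose hearts did not overlap had small changes, none of them past the test. Higher in KO were Aprt, which salvages adenine (0.19), Impdh2, the rate-limiting enzyme of guanine nucleotide synthesis (0.15), and the AMP deaminase Ampd2 (0.13). Also higher were the intracellular glucose carrier Slc2a8 (0.18), Pfkfb1, which sets fructose 2,6-bisphosphate (0.18), Vhl, which marks hypoxia-inducible factors for breakdown (0.15), and Tecr of fatty acid elongation (0.12). Lower in KO was Mgst3, a glutathione transferase of membranes (-0.28). Pik3ca, a catalytic subunit of PI3 kinase, had a change of -0.11, Pgd of the pentose phosphate pathway -0.13, the kynurenine enzyme Afmid -0.13 and the phosphatase Ppm1a -0.09.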

How the data were processed

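Per the labels, hearts of mouse embryos at E17.5 gave total RNA that was read on the NanoString nCounter platform. The values the authors deposited are ratios of each of 768 probes to Tbp in the same heart. The sources used here do not give the panel, the software, or any background subtraction and scaling to control probes. Each heart's ratios were multiplied by the smallest whole number that made them whole within 0.01 (100% of values), which gave counts that are the smallest the ratios allow. That number, read as the Tbp count, was 288 to 433. Log2(count + 1) was centred on each heart's median over the 703 genes with a mean of at least 20 counts, and 65 probes were left out. With a pseudocount, the fold changes of genes with few counts come out too small.

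KO and HET hearts were compared in R 4.3.3 with limma 3.58.1 (lmFit, eBayes) over 8 hearts, 4 a group, with Benjamini-Hochberg adjustment over 703 genes and a threshold of 0.05. The script was tested on simulated data. The comparison, the 33 gene lists and the genes to name were chosen with earlier results of these data known. Genes named were Slc25a1, Tbp, the called genes, up to 15 non-overlapping genes per direction with the smallest p, Phgdh, Lepr and Itga1, and 3 genes per list of at least 5 tested members. Others are said to have been picked after their values were seen, or complete a pathway or list. A few genes that the rule names are not reported here. Alternatives changed the scaling, pseudocount, filter, variance model, hearts in the fit and replicate block. Of 768 deposited symbols 767 were in the RefSeq table of GRCm38.p6, the source of the promoter windows. Python 3.11.15 with matplotlib 3.10.9 drew the figures.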

Additional observations from a re-analysis of the deposited data

Results flagged for a closer look

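In 9 of 238 groups of 4 hearts examined, 1 heart lay far from the other 3 by Dixon's criterion, which chance alone meets in about 1 group in 20. Tbp in HET 4 was at -0.21 while the other HET hearts lay between -0.54 and -0.49. H2-D1 in HET 1 was at 0.14 against 0.51 to 0.56, and Cybb in HET 1 was at -2.27 against -2.18 to -2.16. Cyp1a1, a detoxifying cytochrome, was at -2.73 in HET 3 against -3.65 to -3.54 in the other HET hearts. Acat1 in KO 1 was at 4.23 against 4.42 to 4.45, and Ak1 in KO 1 was at 3.64 against 3.82 to 3.85. Afmid in KO 4 was at -0.92 against -0.83 to -0.81. The mean level of the arginine and polyamine list in KO 4 was -0.03 against 0.04 to 0.05, and that of the DNA repair list in KO 2 was -0.05 against 0.07 to 0.09.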

How the results depend on the processing

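Over 23 alternatives, 22 of them planned, Slc25a1 was called in each, with changes of -1.84 to -1.61. Phgdh was called in 20, with 0.61 to 0.75. The number of genes called, 2 in the fit reported, was 3 on the deposited scale (Cd84 and Ctss in, Phgdh out), 5 with a variance trend and 5 with voom weights (in both Cd36, Ctss and H2-D1 were added), 4 with heart weights (Cd84 and Ctss added) and 1 to 5 with a heart left out. Without HET 4 and KO 1, chosen after seeing the data, it was 4 (Cybb and Lepr added). Without HET 3, Aanat and Fasl were added, and without KO 2, Gzma. The 33 genes with hearts that did not overlap became 18 on the deposited scale, 2 higher and 16 lower, of which 6 were among the 33. Leaving out a heart gave 42 to 97 and leaving out HET 4 and KO 1 gave 144, with fewer hearts to overlap by construction. Equal replicate numbers did not pair the hearts, as the correlations of deviations from the group mean were -0.51, 0.15, 0.31 and -0.40 for numbers 1 to 4, and with the replicate block 1 gene was called, Phgdh having a limma adjusted p of 0.217.

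Of the named changes that took the other sign, none passed a test. On the deposited scale these were Acaca -0.0154, Nsd1 -0.0162, Ncor1 -0.0309 and Kat6a -0.0369. Under quantile normalization they were Mat2a 0.0041, Acat1 0.0325 and Col4a2 0.0123. Centred on all probes, and with no filter, Ncor1 was at -0.0026 and Kat6a at -0.0086. With hearts left out in turn, Acaca ran from -0.0266 to 0.0858, Thbs1 from -0.0032 to 0.194, Gls2 from -0.0281 to 0.3841, Ncor1 from -0.0233 to 0.0651, Kat6a from -0.0088 to 0.0585 and Abcf1 from -0.0099 to 0.1308. Abcf1 was at -0.0221 without HET 4 and KO 1. The cause was not tested. In HET 1, with 288 Tbp counts, counting error of Tbp alone is 5.89% and enters every deposited ratio of that heart, and genes near 20 counts are measured least well.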

Other observations

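Several groups of metabolic genes showed no shared direction between KO and HET hearts, and none of the genes named in this section passed the limma test. Of 37 tested genes of nucleotide synthesis and salvage 19 were above and 18 below HET, with a median change of 0.01. Glutamine, glutamate and proline metabolism split evenly, 8 and 8 of 16. Arginine and polyamine genes were above HET in 7 of 12, among them Ass1, which makes argininosuccinate (0.31), and Odc1, the first enzyme of polyamine synthesis (0.13). The pentose phosphate pathway had 4 of 8 genes on each side, with Taldo1 at -0.14 and Rpia at -0.10. Of 19 redox genes under NRF2 and related control 9 were above HET, including Hmox1 at 0.37, and 10 below, including the extracellular superoxide dismutase Sod3 at -0.27 and the mitochondrial thioredoxin Txn2 at -0.13. Of 12 genes of tryptophan, NAD and vitamin cofactors 7 were above HET. Tdo2 and Ido2, which open the tryptophan ring, had changes of 0.43 and 0.22 at mean counts of 38.1 and 47.2, and the detoxifying cytochrome Cyp1a1 had 0.44 at 50.8.

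Signalling and regulatory genes were likewise mixed. In the PI3K, AKT, AMPK and mTOR list 14 of 38 genes were above HET and 24 below, with a median of -0.03, and the AMPK catalytic subunit Prkaa2 had a change of -0.20. The list of MAPK, NF-kB and receptor tyrosine kinases had 11 of 25 above HET, with the NF-kB subunit Rela at 0.19 and the kinase Braf at 0.14. Cytokine and JAK-STAT genes were above HET in 7 of 17. Autophagy and lysosome genes were above in 7 of 17, with the lysosomal protease Ctsd at -0.11 beside Ctss. Chromatin and methylation genes were at 5 of 10 and p53 targets at 4 of 7. Of 25 housekeeping candidates 12 were above and 13 below HET, with a median of -0.01. Both endothelial genes on the panel were above HET, Flt1 and Nos3 with 0.12 each, and the 1 erythroid gene had a change of -0.05.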
